A study of Homo sapiens with 7 samples.

Results

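The genes described here encode the core of the human microRNA machinery: the Argonautes AGO1, AGO2, AGO3 and AGO4, the scaffold proteins TNRC6A, TNRC6B and TNRC6C, the nucleases DROSHA and DICER1, and the DICER1 partner TARBP2. Members were all gene probes whose accession maps to one of these 10 symbols, which gave 13 of the 42405 gene probes and 10 of the 19063 named genes on the array. AGO1, AGO3 and TNRC6C each had 2 probes and the other genes 1. The data are 7 single-colour Agilent arrays of total RNA from NCI-H520, an established line of lung squamous carcinoma origin, 1 array per group. All cells received 6 µg of a pLKO.1 plasmid by cationic liposomes, puromycin at 6 µg/mL from 12 h, and were harvested at 72 h. The control groups were empty-vector and non-target-vector, and the silenced groups carried an anti-PARN-shRNA, anti-CNOT6-shRNA, anti-CNOT6L-shRNA, anti-CNOT7-shRNA or anti-NOC-shRNA, each directed against a deadenylase, an enzyme that shortens poly(A) tails. The labels give the CNOT6L and NOC plasmids the same target accession, so the sequence behind the CNOT6L plasmid is uncertain. Delivery was transient, and cells with the plasmid were selected as a mixed population. Untransfected cells were not analysed here.

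In the microRNA pathway, DROSHA crops the primary transcript in the nucleus and DICER1, with TARBP2, cuts the exported hairpin into a short duplex. One strand is loaded into an Argonaute, of which AGO2 is the member best known for cutting a fully matched target. A TNRC6 protein bound to the Argonaute recruits the deadenylase complexes PAN2-PAN3 and CCR4-NOT, so that the poly(A) tail of the target is shortened. CNOT6, CNOT6L and CNOT7 are catalytic subunits of CCR4-NOT, whereas PARN and nocturnin (NOC, gene symbol NOCT) are not part of it. The question addressed was whether the mRNAs of this machinery differ when one deadenylase is silenced.

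The sequences that the pathway results below turn on are those of a pair of related microRNA clusters, carried by the host transcripts MIR100HG and MIR99AHG, and that of miR-22, carried by MIR22HG, since these hosts were among the pathway transcripts with the widest differences between arrays. They are RefSeq mature sequences of build GRCh38.p14, with the seed, bases 2 to 8, in capitals. The arrays measure the host transcripts and not the mature microRNAs.
hsa-miR-100-5p: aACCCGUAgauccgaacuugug
hsa-miR-99a-5p: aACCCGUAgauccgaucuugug
hsa-let-7a-5p: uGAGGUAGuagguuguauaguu
hsa-let-7c-5p: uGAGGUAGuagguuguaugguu
hsa-miR-125b-5p: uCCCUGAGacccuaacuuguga
hsa-miR-22-3p: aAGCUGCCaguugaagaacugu
The first pair shares the seed ACCCGUA, held by 3 of the 2370 mature sequences in the table, and the let-7 pair shares GAGGUAG, held by 11. MIR100HG carries miR-100 (5p arm at chr11:122152275-122152296, minus strand), let-7a (chr11:122146568-122146589, minus strand) and miR-125b (chr11:122099809-122099830, minus strand). MIR99AHG carries miR-99a (chr21:16539101-16539122, plus strand), let-7c (chr21:16539838-16539859, plus strand) and a second copy of miR-125b (chr21:16590253-16590274, plus strand), so both hosts can supply the same seeds. miR-22-3p lies at chr17:1713914-1713935 on the minus strand.

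All levels below are log2 processed signals minus the 75th percentile of all gene spots on the same array, so 0 is the signal of the spot at that percentile and 1 unit is 2-fold. Levels of different probes are not compared with each other. That percentile was a signal of 1366 on the dimmest array (CNOT6 shRNA) and 3986 on the brightest (CNOT7 shRNA), and 81.8% to 91.3% of probes were above background. The mRNA targeted by each shRNA was lowest where that shRNA had been given, PARN at 45.8% of its control mean, CNOT6 at 89.6%, CNOT6L at 63.0%, CNOT7 at 54.2% and NOCT at 74.3%. Only PARN was past 2-fold below both controls. Against the empty-vector and non-target-vector arrays, CNOT6 differed by -0.21 and -0.11 log2 and NOCT by -0.64 and -0.22. Over all probes the median absolute difference between the controls was 0.33 log2. Silencing therefore names the shRNA given below, and not a proven loss of the target. The 7 arrays lay on 1 slide, in which row 1 held both controls with the arrays for PARN and CNOT6 silencing, and row 2 held those for CNOT6L, CNOT7 and NOC silencing, so for these 3 arrays slide row and difference from the controls cannot be told apart. Image extraction for NOC shRNA took place on a different day from the other arrays. Of 10 squamous epithelial markers, 6 were above background on all 7 arrays. SOX2 (4.58 to 5.45) and PERP (3.76 to 4.77) were above the 75th percentile throughout. KRT6A (-2.38 to -0.78), KRT17 (-7.52 to -6.69), DSC3 (-6.48 to -5.65) and PKP1 (-6.2 to -5.33) were below it. Other defining markers were not above background on all arrays, with KRT5 above it on 4 arrays, TP63 on 2, KRT14 on 1 and DSG3 on 0. Markers of other cell types were also above background on all 7 arrays, namely 3 of 4 for lung adenocarcinoma (NKX2-1, NAPSA and SFTPC), 3 of 3 for immune cells (PTPRC, CD3E and CD14, the last at 2.91 to 3.85) and 3 of 3 for fibroblasts (COL1A1, COL1A2 and DCN), and their part in the results was not tested. In bulk RNA, fewer cells with a transcript and less of it per cell cannot be told apart.

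All 13 member probes were above background on all 7 arrays, with 0 saturated spots. Of the 65 pairs of a member probe and an shRNA, 0 passed a 2-fold difference from both controls in one direction, and 63 lay within 2-fold of both. Over all probes the same rule called 0.735% upon PARN silencing, 0.643% upon CNOT6 silencing, 1% for CNOT6L, 1.34% for CNOT7 and 1.76% for NOC, so with 13 probes a count of 0 is near the background. The median range of a member probe over the 7 arrays was 0.55 log2, against 0.71 for all probes above background on every array. The range was over 2-fold for the bright AGO1 probe (1.11 log2), TNRC6A (1.004) and a TNRC6C probe (1.02), and 73.0% to 78.7% of those probes had a smaller range than these 3. With 1 array per group no single shRNA has a replicate check.

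**Figure D1:**
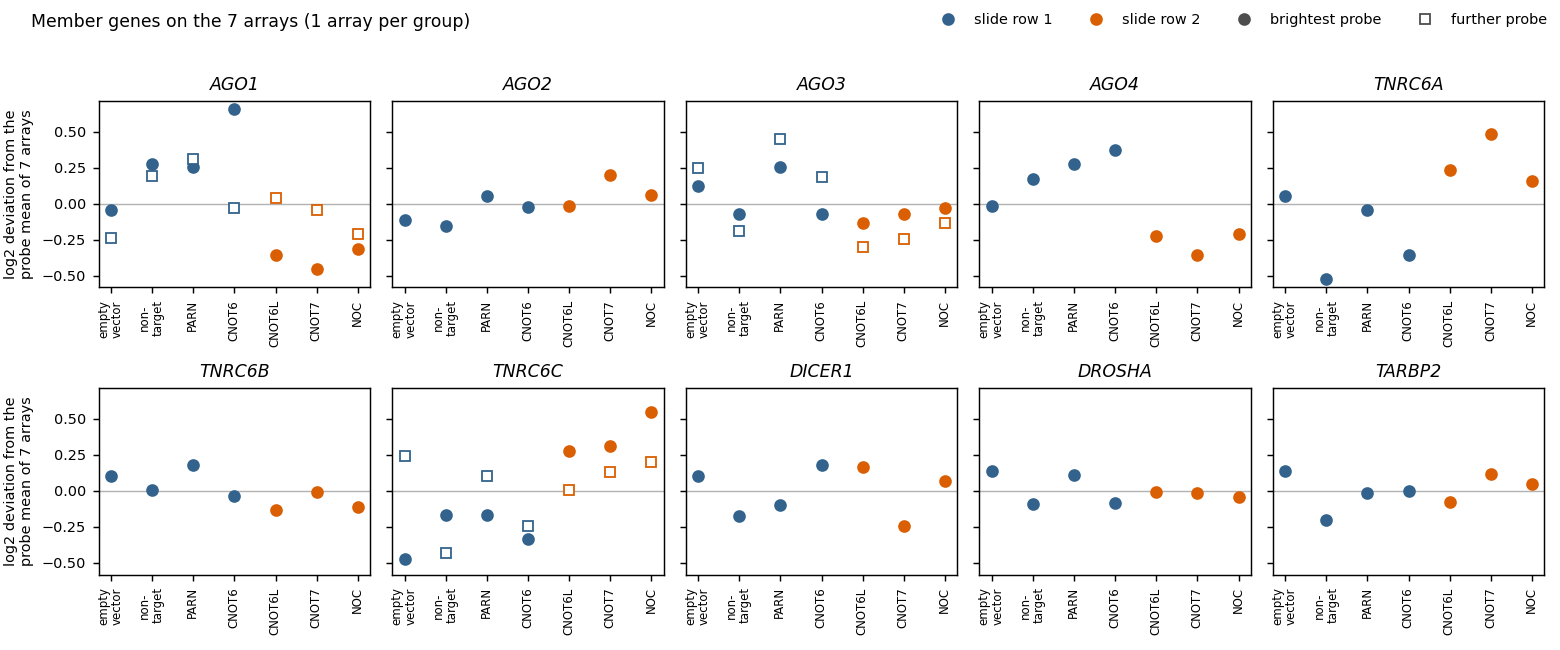
Each panel is a member gene, with the 7 arrays (transfected plasmid) on the x axis and, on the y axis, the log2 deviation from the mean of the probe over the 7 arrays; filled circles are the brightest probe, open squares a further probe, blue slide row 1 and orange slide row 2. DROSHA, TNRC6B, TARBP2 and AGO2 stay within 0.36 log2 from lowest to highest, while the bright AGO1 probe spans 1.11 log2, with the 3 row 2 arrays lowest.

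Levels are given below in the order empty-vector, non-target-vector, then PARN, CNOT6, CNOT6L, CNOT7 and NOC shRNA. AGO2, the slicing Argonaute, read 2.28, 2.24, 2.45, 2.37, 2.38, 2.59 and 2.45 (probe A_23_P112159). Both controls were below all 5 shRNA arrays, and the CNOT7 shRNA array was highest. On a single shRNA array, 23.4% (PARN) to 40.5% (CNOT6) of all probes lay above both controls. The share above both on all 5 is not given here, so this order is not read as particular to AGO2. The AGO2 probe is printed on 10 spots, so AGO2 has the best-determined level of the group: the SD over the 8 to 10 clean spots was 0.05 to 0.09 log2 on each array. The controls differed by 0.04, while the shRNA arrays exceeded the control mean by 0.11 to 0.34. In the order of the shRNA arrays, CNOT6 and CNOT6L shRNA (2.37 and 2.38) and PARN and NOC shRNA (both 2.45) differed by less than the SD between spots, whereas CNOT7 shRNA (2.59) exceeded the next array by more than that SD. Spots measure the printing of 1 RNA sample and are no replicates of a transfection. Fitted over arrays with limma, the mean of the 5 shRNA arrays exceeded that of the 2 controls by 0.19 log2 (SE 0.11, 95% interval -0.06 to 0.44, n = 5 and 2, unadjusted p = 0.117, adjusted p = 1).

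**Figure D2:**
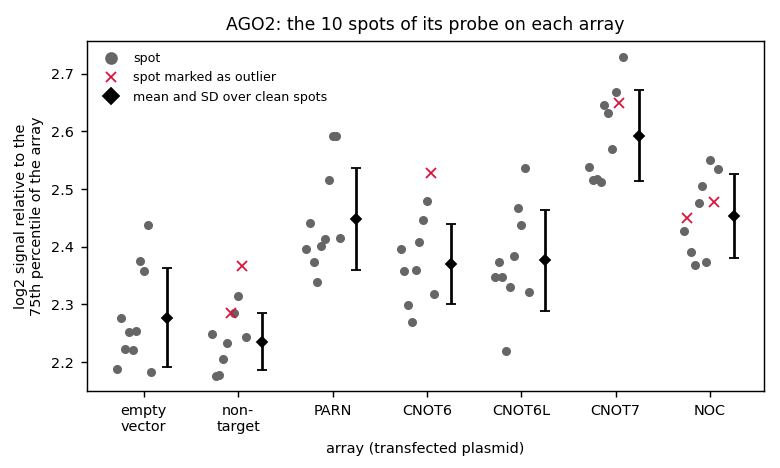
Grey points are the clean spots of the AGO2 probe on each array, red crosses the spots marked as outliers and left out, and black diamonds with bars the mean and SD over clean spots; the y axis is the log2 signal relative to the 75th percentile of the array. The means run from 2.24 on the non-target-vector array to 2.59 on the CNOT7 shRNA array.

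AGO1, an Argonaute that silences without efficient cutting, gave its widest values on probe A_33_P3402116: 0.86, 1.18, 1.17, 1.57, 0.55, 0.45 and 0.59. The 3 row 2 arrays were the lowest and the CNOT6 shRNA array the highest, a range of 1.11 log2 or 2.16-fold. Its other probe, A_33_P3380587, did not show this order, with -2.40, -1.97, -1.85, -2.19, -2.12, -2.21 and -2.37. There the empty-vector array was lowest and the CNOT6L shRNA array lay in the upper part of the order. The 5 shRNA arrays differed from the controls by -0.16 log2 on the first probe (SE 0.29, limma adjusted p = 1) and by 0.04 on the second (SE 0.19).

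AGO4, a further Argonaute without known cutting activity, read -2.94, -2.76, -2.66, -2.56, -3.16, -3.28 and -3.14. The order from low to high was that of the first AGO1 probe, CNOT7, CNOT6L and NOC shRNA at the bottom and CNOT6 shRNA at the top, except that PARN shRNA and non-target-vector changed places. AGO4 and AGO1 are next to each other on chromosome 1 with 0 annotated genes between them, and AGO3 follows AGO1 with only the pseudogene CFAP97P1 between. AGO3 read 1.61, 1.41, 1.74, 1.42, 1.35, 1.42 and 1.46 on probe A_23_P97021 and 1.39, 0.95, 1.59, 1.32, 0.84, 0.89 and 1.0 on probe A_33_P3244882. On both AGO3 probes PARN shRNA was highest and CNOT6L shRNA lowest, but only on the second were all 3 row 2 arrays below both row 1 shRNA arrays. The controls differed by 0.19 and 0.44 log2 on these probes, where the shRNA arrays differed from the control mean by at most 0.23 and 0.42.

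Since the bright AGO1 probe and the AGO4 probe followed nearly the same order, the promoters of these neighbours are shown, from 250 bases before to 50 bases after the start of the gene (RefSeq, GRCh38.p14, plus strand), with the GC box GGGCGG on either strand (CCGCCC on the other) in capitals.
AGO1, chr1:35882959-35883258: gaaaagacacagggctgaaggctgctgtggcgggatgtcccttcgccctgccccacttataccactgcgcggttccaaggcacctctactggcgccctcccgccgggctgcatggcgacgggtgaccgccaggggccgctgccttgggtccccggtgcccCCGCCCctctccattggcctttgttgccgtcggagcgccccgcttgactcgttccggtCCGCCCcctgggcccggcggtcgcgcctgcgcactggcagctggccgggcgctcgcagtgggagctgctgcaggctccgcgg
AGO4, chr1:35807766-35808065: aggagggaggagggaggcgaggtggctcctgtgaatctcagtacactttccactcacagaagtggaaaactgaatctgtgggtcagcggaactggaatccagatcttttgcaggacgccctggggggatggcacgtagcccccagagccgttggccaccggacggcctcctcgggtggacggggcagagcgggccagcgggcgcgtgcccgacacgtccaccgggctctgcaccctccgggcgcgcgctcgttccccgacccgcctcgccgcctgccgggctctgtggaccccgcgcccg
The AGO1 window holds 2 matches and 72.3% GC, and the AGO4 window 0 matches and 69.0% GC. Over all 35116 promoters the median GC content was 58.7%, and 45.0% held the motif, so a match does not set a promoter apart. A lower GC content than AGO1 was found in 84.9% of promoters, and a lower one than AGO4 in 77.2%. The AGO3 window, not printed, held 2 matches and 80.0% GC, and 97.4% of promoters had less. TATAAA (on both strands, in 11.5% of promoters) and CACGTG (its own reverse complement, in 7.26%) were in none of these windows.

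Among the scaffold proteins, TNRC6A read 2.22, 1.65, 2.13, 1.81, 2.40, 2.65 and 2.33. The 3 row 2 arrays were highest and the non-target-vector array lowest, and the controls alone differed by 0.58 log2. TNRC6C read -0.74, -0.43, -0.44, -0.60, 0.01, 0.05 and 0.28 on probe A_33_P3302428. Here too the row 2 arrays were the 3 highest, and the NOC shRNA array stood 0.87 log2 above the control mean, the largest difference from the control mean of all 65 pairs. It was also the 1 pair of 65 past 1.5-fold of both controls in one direction, where that rule called 2.05% of all probes for PARN, 4.64% for CNOT6, 4.78% for CNOT6L, 5.5% for CNOT7 and 6% for NOC silencing, and 2.1% as higher with NOC shRNA. The further TNRC6C probe, A_33_P3302423, read -1.20, -1.87, -1.34, -1.68, -1.43, -1.31 and -1.24, with the empty-vector array highest and the controls 0.68 log2 apart. The TNRC6C probes therefore disagreed on where the controls lay.

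TNRC6B, the third scaffold gene, held a narrow range: 0.44, 0.34, 0.51, 0.30, 0.20, 0.32 and 0.22. It spanned 0.31 log2, and 6.23% of probes above background on all arrays had a smaller range. In limma the 5 shRNA arrays differed from the controls by 0.33 log2 for TNRC6A (SE 0.23, unadjusted p = 0.178), 0.45 for the first TNRC6C probe (SE 0.24, unadjusted p = 0.0887), 0.14 for the second (SE 0.20) and -0.08 for TNRC6B (SE 0.13), each at adjusted p = 1.

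Of the processing genes, DROSHA, the nuclear nuclease of the Microprocessor, read 4.12, 3.89, 4.09, 3.90, 3.97, 3.97 and 3.94. Its range of 0.23 log2 was the narrowest of the member probes, and only 1.93% of probes above background on all arrays had a smaller one. The controls were its highest and lowest arrays, so every shRNA array lay between them. DICER1, the cytoplasmic nuclease, read 1.07, 0.79, 0.87, 1.15, 1.13, 0.72 and 1.04, with the CNOT7 shRNA array lowest and the CNOT6 shRNA array highest. TARBP2, the double-stranded RNA binding partner of DICER1, read 1.33, 1.0, 1.18, 1.20, 1.12, 1.32 and 1.25, again with all shRNA arrays between the controls. Their limma differences from the controls were 0.05 for DICER1 (95% interval -0.30 to 0.40), -0.03 for DROSHA (-0.28 to 0.22) and 0.05 for TARBP2 (-0.24 to 0.34), each at adjusted p = 1. Changes of the mean past 1.5-fold therefore lay outside the intervals of these 3 genes, since 1.5-fold is 0.585 log2, whereas the interval of the bright AGO1 probe ran from -0.80 to 0.49 and that of the first TNRC6C probe from -0.08 to 0.98.

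**Figure D3:**
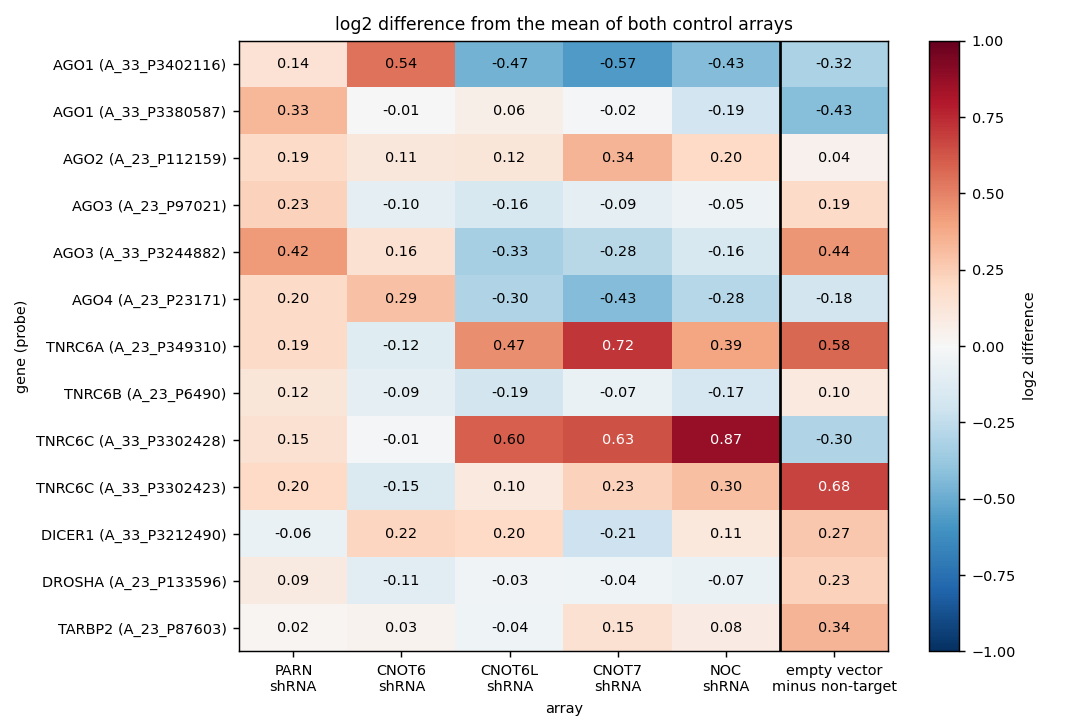
Rows are the 13 member probes and columns the 5 shRNA arrays, with the log2 difference from the mean of both control arrays printed in each cell and coloured from blue (lower) to red (higher); the last column is the empty-vector array minus the non-target-vector array. The largest value is 0.87 for TNRC6C with NOC shRNA, and the last column reaches 0.68, and in 43 of 65 cells the difference is no larger than that between the controls for the same probe.

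The controls were the only direct measure of spread between transfections without a deadenylase shRNA. Between them, 0 of 13 member probes differed 2-fold, where 16.6% of all probes did. That share includes dim probes, whereas the member probes were above background on every array, so the 2 are not like for like. The median absolute difference between the controls was 0.30 log2 for member probes and 0.33 for all probes. Relative to the mean of both controls, 61 of the 65 pairs lay within 1.5-fold. The median member difference from the control mean was 0.19 upon PARN silencing, -0.01 for CNOT6, -0.03 for CNOT6L, -0.04 for CNOT7 and -0.05 for NOC, while the medians over all probes were -0.01, 0.12, -0.01, -0.08 and -0.06. With PARN shRNA 6 member probes, among them both AGO3 probes, lay above both controls and 0 below both. Over all probes 23.4% lay above both and 28.2% below both. The member counts above and below were 4 and 1 for CNOT6 (40.5% and 22.1% of all probes) and 4 and 5 for CNOT6L (28.9% and 31.4%). They were 3 and 5 for CNOT7 (24.8% and 37.7%) and 3 and 3 for NOC (26.6% and 36.7%). These 5 comparisons share the same control arrays.

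Over all 38004 probes that limma tested, 0 passed an adjusted p of 0.05 between the 5 shRNA arrays and the 2 controls, a background of 0%, and 1420 (3.74%) had an unadjusted p under 0.05. Of the 13 member probes, 0 were called and 0 had an unadjusted p under 0.05.

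CCR4-NOT is the complex that TNRC6 proteins recruit, so the 3 arrays with a CCR4-NOT subunit silenced were set against those with PARN or NOC silenced. For AGO2 the means were 2.45 and 2.45, a difference of 0.00 log2 (SE 0.13). TNRC6A differed by 0.06 (SE 0.26), TNRC6B by -0.09 (SE 0.15) and the first TNRC6C probe by -0.10 (SE 0.27). The largest member difference was -0.28 for the second AGO3 probe (SE 0.24, limma adjusted p = 1). None of the 13 member probes passed, 0 had an unadjusted p under 0.05, and over all probes 0 were called (0%) and 330 (0.868%) had an unadjusted p under 0.05.

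For some members the arrays separated by slide row. Among the shRNA arrays, limma with slide row as a term called 1476 probes between row 2 (CNOT6L, CNOT7 and NOC shRNA) and row 1 (PARN and CNOT6 shRNA), 3.88% of those tested, 487 higher and 989 lower in row 2. The split was 715 higher and 776 lower with quantile normalization, 18624 and 62 without scaling, 1790 and 12347 with normexp background correction, and 0 and 0 with the series table. Without 1 shRNA array the count was 46 (CNOT7), 53 (CNOT6L), 56 (PARN), 64 (NOC) or 137 (CNOT6), and it was 5236 without the empty-vector and 5166 without the non-target-vector array. This comparison was chosen after the values had been seen. The bright AGO1 probe was the 1 member probe called. Its means were 0.53 in row 2 and 1.37 in row 1, a difference of -0.83 log2 (SE 0.15, limma adjusted p = 0.03), lower on 3 of 3 row 2 arrays. Without scaling, where the brightness of each array stays in the values, the difference was 0.22. The call was lost without any single shRNA array, with differences of -1.04 to -0.63 and adjusted p of 0.0707 to 0.126, and with the series table (-0.77, adjusted p = 0.13). The second AGO1 probe differed by -0.21 (SE 0.18, adjusted p = 0.525).

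For AGO4 the row difference was -0.58 log2 (SE 0.15, adjusted p = 0.0724), for the second AGO3 probe -0.54 (SE 0.15, adjusted p = 0.0855), for TNRC6A 0.49 (SE 0.19, adjusted p = 0.169) and for the first TNRC6C probe 0.63 (SE 0.14, adjusted p = 0.0514). Without scaling between arrays the AGO4 and AGO3 values turned to 0.47 and 0.51, and those of TNRC6A and the first TNRC6C probe rose to 1.54 and 1.69. That setting moves the row difference of every probe by the same amount, so these shifts are not particular to the genes named. Leaving out the empty-vector or the non-target-vector array brought AGO4 (adjusted p = 0.0305 and 0.0321), the second AGO3 probe (0.0259 and 0.0262) and the first TNRC6C probe (0.0205 and 0.021) past the threshold. With AGO1 these made 5 of 13 member probes at an unadjusted p under 0.05, where 23.2% of all probes were. All row 2 arrays lay below all row 1 arrays for the bright AGO1 probe and AGO4, as they did for 15.1% of all probes, and above them for TNRC6A and the first TNRC6C probe, as for 8.71% of all probes. For AGO2, TNRC6B, DICER1, DROSHA and TARBP2 the row difference was between -0.16 and 0.06 log2. Slide row and the identity of the silenced deadenylase cannot be told apart here.

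Within row 2, no control array is present, and the 3 shRNA arrays were set against each other. There 0 member probes differed 2-fold from both row mates with CNOT6L, CNOT7 or NOC shRNA, where the rule called 1.16%, 0.31% and 0.444% of all probes. Differences from the mean of the row mates spanned -0.16 to 0.25 log2 with CNOT6L shRNA, -0.36 to 0.29 with CNOT7 shRNA and -0.21 to 0.25 with NOC shRNA. On the second AGO1 probe and the second TNRC6C probe every row 2 array lay between the controls.

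**Figure D4:**
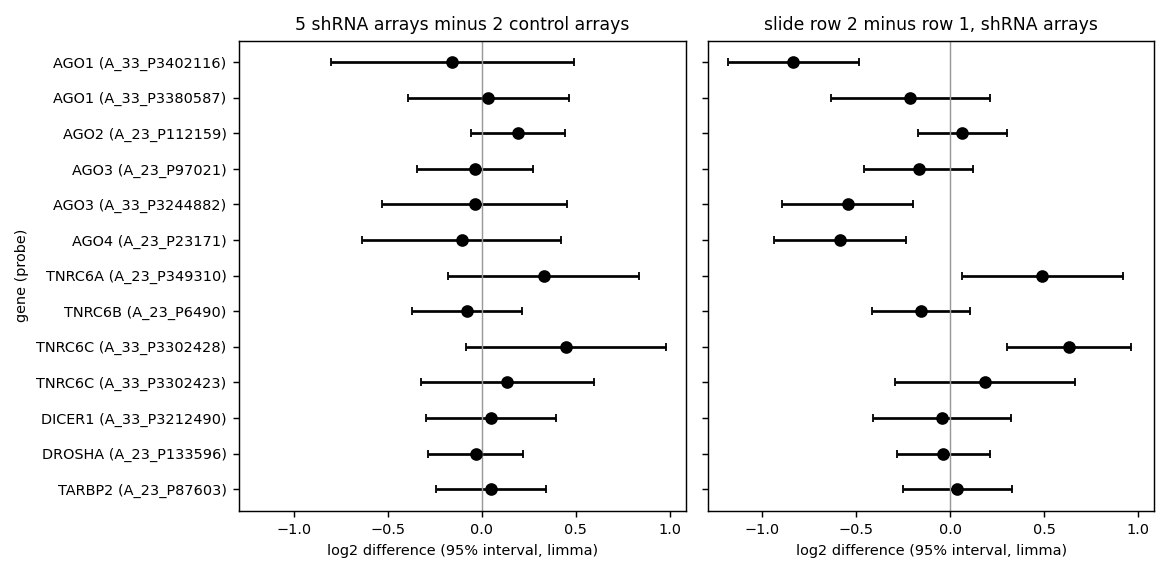
Points are limma estimates of the log2 difference for the 13 member probes and bars their 95% intervals; the left panel is the mean of the 5 shRNA arrays minus that of the 2 control arrays, the right panel slide row 2 minus row 1 among the shRNA arrays. Every interval on the left includes 0, while on the right those of the bright AGO1 probe, the second AGO3 probe, AGO4, TNRC6A and the first TNRC6C probe do not; only AGO1 has an adjusted p under 0.05.

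Other genes of the pathway were described by lists: 13 genes of nuclear processing and export, 17 of Argonaute loading and partner proteins, 10 silencing effectors, 4 PIWI proteins and 16 microRNA host transcripts. Of these 60 genes, 56 had a probe and 53 a usable one, above background on at least 2 arrays. In the first 3 lists 0 of 40 genes were called 2-fold against both controls with any shRNA, near the backgrounds of 0.643% to 1.76% given above. Their median differences from the control mean lay between -0.15 and 0.17 log2 over the 5 arrays, while the medians over all probes lay between -0.08 and 0.12. Tested with limma between the 5 shRNA arrays and the controls, 0 of the 53 genes passed, as over all probes (0%), and 4 had an unadjusted p under 0.05, as did 3.74% of all probes. These were MIR99AHG, the decapping cofactor DCP1A, the let-7 processing inhibitor LIN28B and MIR100HG, named after their values were seen, as were the further listed genes with values below, each at adjusted p = 1.

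DCP1A read 4.18, 3.72, 4.24, 4.42, 4.32, 4.24 and 4.31, and every shRNA array exceeded both controls. LIN28B read -3.21, -3.45, -3.53, -3.84, -4.01, -3.80 and -4.26, with every shRNA array below both controls and the NOC shRNA array lowest. Their differences from the controls were 0.35 (SE 0.14) and -0.56 log2 (SE 0.23). The share of all probes with every shRNA array on the same side of both controls is not given here. On a single shRNA array, 23.4% (PARN) to 40.5% (CNOT6) of all probes lay above both controls, and 22.1% (CNOT6) to 37.7% (CNOT7) below both. These orders are therefore not read as particular to DCP1A or LIN28B.

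The host transcripts were the list with the widest spread. MIR100HG read -5.69, -6.46, -6.58, -7.23, -7.18, -6.64 and -7.63, not well above background with CNOT6 shRNA, and was the 1 listed gene called, lower with NOC shRNA at -1.94 and -1.17 log2 against the empty-vector and non-target-vector arrays. With 1 of 53 listed genes called and 1.76% of all probes called for this shRNA, the count is near the background. That call was absent without scaling between arrays and with normexp background correction. MIR99AHG, the host of the related cluster, read -3.87, -4.94, -4.10, -3.52, -3.05, -3.33 and -3.55 and was not called with any shRNA, and its controls were 1.07 log2 apart. The limma differences from the controls were -0.98 log2 for MIR100HG (SE 0.41, unadjusted p = 0.0404) and 0.89 for MIR99AHG (SE 0.34, unadjusted p = 0.0255). So MIR100HG and MIR99AHG, whose microRNAs share the seeds printed above, had differences of opposite sign, neither of which passed the adjusted threshold. MIRLET7BHG, a further measured host of let-7a and thus of the seed GAGGUAG, differed from the controls by -0.11 log2 (SE 0.16). MIR22HG read 0.78, 2.20, 0.98, 1.90, 0.43, 0.57 and 0.36, a spread in which the controls alone were 1.41 log2 apart.

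Of the PIWI proteins, which carry germ-line small RNAs, PIWIL1 and PIWIL3 were above background on 0 arrays. PIWIL2, above background on all 7 arrays, read -3.45, -4.28, -3.63, -3.65, -3.87, -3.87 and -3.80, with a row difference of -0.21 log2 (SE 0.25). PIWIL4 read -0.23, -0.11, -0.18, -0.24, -0.87, -1.04 and -0.86, with the 4 row 1 arrays between -0.24 and -0.11 and all row 2 arrays lower. It was the 1 of 53 listed genes called between slide rows (-0.71 log2, SE 0.12, adjusted p = 0.0251), where 3.88% of all probes were called, so the count is not above the background. Its difference was 0.34 without scaling between arrays, a setting that shifts every probe alike. The call was lost with the series table (adjusted p = 0.136) and without any single shRNA array (adjusted p = 0.0811 to 0.116). HSP90AA1, a chaperone of Argonaute loading, read 6.34, 6.75, 6.68, 7.27, 6.24, 6.03 and 6.29, with the CNOT6 shRNA array highest and the row 2 arrays lowest, as for the bright AGO1 probe (row difference -0.78, SE 0.19, adjusted p = 0.0608). The chaperones HSP90AB1 and HSPA8 of the same list had row differences of the other sign, 0.11 (SE 0.11) and 0.25 (SE 0.15). The germ-line markers DDX4 and DAZL were above background on 2 and 0 arrays.

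**Figure D5:**
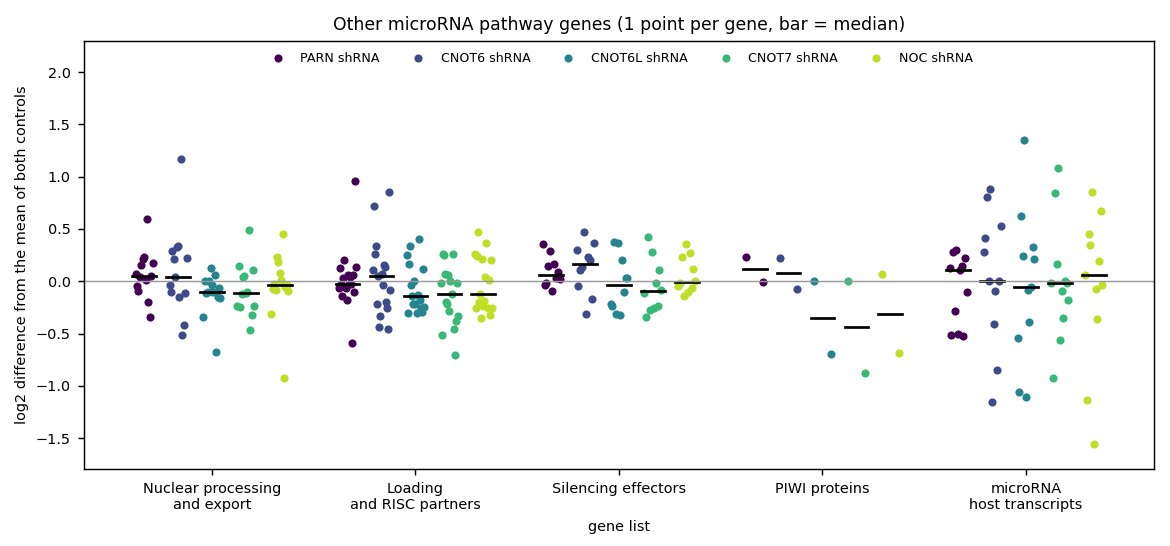
Each point is a listed gene and each bar the median of its list, with the lists along the x axis, the 5 shRNA arrays side by side in colour within each list, and the log2 difference from the mean of both controls on the y axis. Medians of the 3 larger protein lists stay between -0.15 and 0.17, while the host transcripts spread from -1.56 to 1.35.

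The genes whose levels over the 7 arrays were most like those of AGO2, DICER1 and TNRC6B were sought among 16454 genes above background on every array. For AGO2 they were NOP53, SLC27A5 and SLC35D2, with Pearson r of 0.937, 0.928 and 0.924. For DICER1 they were CCDC71, CIMIP2B and CHMP4B, with r of 0.967, 0.961 and 0.935. TNRC6B was most like DDHD1, CNOT1 and KMT5B, with r of 0.99, 0.986 and 0.983, where CNOT1 is the scaffold subunit of CCR4-NOT. These are descriptions over 7 arrays that share a slide and a scaling, and 183 genes had an r over 0.9 with TNRC6B, against 18 with DICER1 and 7 with AGO2.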

How the data were processed

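Total RNA of NCI-H520 cells was hybridised to 7 single-colour arrays, 1 per group, so the number of arrays limits the precision. Groups were taken from the labels. Per the file headers, images were read with Feature Extraction 10.7.3.1, and the intensity of 62976 spots per array is held as median, background and processed signals. The deposited series table holds log2 values, shifted per array and centred per probe by the authors, and was used as an alternative. No column of the authors' own comparisons was used.

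From the processed signals, log2 values minus the 75th percentile over the 58717 gene spots were computed. Spots marked as outliers were left out and spots of 1 probe averaged. A probe was above background where at least 50% of its clean spots were marked well above background. Calls were made over 42309 probes with a clean spot on every array. Accessions were named through a RefSeq gene table of GRCh38.p14, which gave names for 24827 probes, with CNOT6 named through the accession in the labels. Each gene was represented by its probe of highest mean signal, with further probes given beside it.

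A single shRNA was compared with both controls by a 2-fold rule without a test. limma 3.58.1 in R 4.3.3 (lmFit, eBayes with trend, two-sided, Benjamini-Hochberg threshold 0.05) was run over the 38004 probes that 2 or more arrays showed above background, and tested on simulated data. Its spread is that between different plasmids, with no label stating separate cultures. Alternatives were other scalings, normexp with offset 50 (on median signals, since the scanner files used here hold no mean signal), the series table, other filters, either control, a 1.5-fold threshold, slide row and leaving out each array. The slide row comparison and the fit on row 1 arrays were added after the data were seen. All 10 members were named, with genes of the pathway lists named where called or where said in the text, and the 3 genes most like AGO2, DICER1 and TNRC6B. Members and lists were chosen with earlier results of these data known. MIR4435-2HG had no clean spot on every array, and MIR205HG, MIR210HG, MIR181A1HG and DLEU2 were not analysed here.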

Additional observations from a re-analysis of the deposited data

How the results depend on the processing

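The control differences of AGO2 (0.14 to 0.21 log2), TNRC6A (0.04 to 0.62) and TNRC6C (0.07 to 0.60) kept their direction under every alternative run, and no alternative gave a member gene an adjusted p under 0.05 between shRNA and control arrays (smallest 0.484). With slide row as a term, the difference fell from 0.33 to 0.035 for TNRC6A and from 0.45 to 0.069 for TNRC6C. In that setting the difference turned to 0.34 for AGO1, 0.067 for AGO3, 0.24 for AGO4 and 0.015 for TNRC6B. The fit on row 1 arrays alone gave the same differences by construction, since row 2 holds no control array. With normexp the difference turned to 0.014 for AGO3. Without the non-target-vector array it turned to 0.0027 for AGO1, -0.087 for DICER1 and -0.12 for TARBP2, and without the empty-vector array to 0.063 for AGO3 and 0.082 for DROSHA. The range over all alternatives was -0.33 to 0.34 for AGO1, -0.13 to 0.07 for AGO3, -0.21 to 0.24 for AGO4, -0.13 to 0.02 for TNRC6B, -0.09 to 0.19 for DICER1, -0.15 to 0.08 for DROSHA and -0.12 to 0.22 for TARBP2. Over all probes limma called 3 without scaling and 0 to 61 when an array was left out, 61 without empty-vector and 1 without non-target-vector. Member probes called 2-fold numbered 1 with CNOT7 shRNA without scaling or against the non-target-vector array alone, and 1 with NOC shRNA against the empty-vector array alone or at 1.5-fold. Between the controls they numbered 2 without scaling and 1 at 1.5-fold. For the pathway lists, calls with CNOT6 shRNA numbered 1 with quantile normalization, 12 without scaling, 2 against empty-vector alone, 4 against non-target-vector alone and 3 at 1.5-fold. With CNOT6L shRNA they numbered 2 with quantile normalization, 1 against empty-vector alone, 4 against non-target-vector alone and 3 at 1.5-fold. With CNOT7 shRNA they numbered 1, 2 and 1 for the last 3 of these settings, with NOC shRNA 2, 5 and 3, and 0 without scaling or with normexp, and with PARN shRNA 2 against non-target-vector alone. Member probes called between slide rows numbered 2 with quantile normalization, 9 without scaling, 5 with normexp, 0 with the series table, and 0 to 4 when an array was left out. Of all 38004 probes, the slide row fit called 1491 with quantile normalization, 18686 without scaling, 14137 with normexp and 0 with the series table. The member counts are therefore not read as particular to the members. For the 2-fold counts of members and lists, shares of all probes are given above only for the shRNA arrays at 1.5-fold. The counts of the other settings, between the controls included, therefore have no background and are not read as results about these genes. Without scaling the median of all probes shifted by -0.76 (CNOT6 shRNA) to 0.78 (CNOT7 shRNA) against the non-target-vector array, and quantile normalization shifted it by up to -0.26. Except where a setting's own construction shows it, as with fewer arrays or a lower threshold, the cause was not tested. No paired analysis was possible because each group has 1 array and the groups share only 1 replicate number.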
